A study of Drosophila melanogaster with 16 samples.

Results

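The genes described here are 73 Drosophila melanogaster genes that the array's annotation gives by a CG number, the serial gene model identifier of the genome annotation, in place of a gene name, and whose RNA gave a high signal in wild-type testes and a low one in testes of both mutants studied. Each is represented by 1 probe set, a group of array oligonucleotides read together, out of 13966 probe sets (0.523%), which include those of 10844 genes read by a probe set with a single symbol. They were chosen by mean signal, in the arbitrary linear units of the arrays: at least 2000 over the wild-type arrays, and at most 100 over the Os+bgcn arrays and over the bgcn arrays, with 1 gene symbol that is a CG number. The contrast of each mutant with wild type therefore chose the genes and is given as a description, without a test.

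RNA of whole testes dissected from adult males was hybridised to 16 single-colour Affymetrix arrays. Os+bgcn testes, which according to their labels combine Os with loss of bgcn, were measured on 6 arrays with 150 testes per sample. Testes mutant for bgcn alone were measured on 5 arrays with 750 testes per sample, and wild-type testes on 5 arrays with 150 testes per sample. About 5 µg of RNA was labelled for each sample, and the design text calls the replicates biological. Loss of bgcn is shared by both mutant groups, so Os+bgcn differs from bgcn by Os and by the number of testes collected. No source used here gives the bgcn allele, the way Os was supplied or the age of the males. In the protocol of the wild-type samples the dissected testes are called bgcn, whereas title, source and description say wild-type.

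In the fly testis, germline stem cells give rise to spermatogonia, which divide a fixed number of times and then become spermatocytes. The product of bgcn is needed, together with that of bam, for these divisions to stop, and mutant germ cells keep dividing as spermatogonia and do not mature. Spermatocytes switch on a large set of testis-specific genes under the control of the testis meiotic arrest complexes, and many of the transcripts are stored for use in spermatids, where flagellum and sperm chromatin are built. Os (outstretched) refers to upd1, the gene of a secreted JAK-STAT ligand that maintains stem cells at the testis tip.

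The genotypes were checked on genes outside the set. upd1 had a mean signal of 396 ± 128 on the Os+bgcn arrays (SD, n = 6), of 9.60 ± 4.31 on the bgcn arrays and of 11.6 ± 6.28 on the wild-type arrays (SD, n = 5 each). Its log2 difference between Os+bgcn and bgcn was 3.83 (adjusted p = 3.5e-10, limma with Benjamini-Hochberg adjustment over all tested probe sets). The bgcn probe set was dim throughout, at 84.8 in Os+bgcn, 67.7 in bgcn and 104 in wild-type testes, and did not separate the groups.

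Of 37 listed genes with a known part in spermatid formation, 27 were measured, and their summed signal was 736 to 1359 on the Os+bgcn arrays, 674 to 1757 on the bgcn arrays and 210813 to 233242 on the wild-type arrays. Among them, 14 met the same signal levels as the unnamed genes, including Mst84Dc and Mst84Db, which encode proteins of the sperm tail. The summed signal of early germline genes, with 10 of 10 measured, ran the other way. It was 4845 to 5449 on the Os+bgcn arrays, 2817 to 3521 on the bgcn arrays and 482 to 637 on the wild-type arrays. Not every gene of this list separated bgcn from wild type. Means in bgcn and wild-type testes were 138 and 144 for stai, 188 and 178 for mei-P26 and 4.20 and 8.68 for nos. The other listed genes had higher means in bgcn than in wild-type testes. In both sums the wild-type arrays stood apart from every bgcn array, although the protocol of the wild-type samples names bgcn testes.

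Wild-type signal of the 73 genes was high enough to make up a sizeable part of the array. Their summed signal was 0.0492 to 0.0690% of the total on the Os+bgcn arrays, 0.0385 to 0.0710% on the bgcn arrays and 11.4 to 12.1% on the wild-type arrays. Between 32 and 35 of the 100 brightest probe sets of each wild-type array belonged to them, against 0 on every mutant array. The median of the 73 signals was 13.9 to 17.3 on the Os+bgcn arrays, 11.6 to 24.0 on the bgcn arrays and 3108 to 3532 on the wild-type arrays. The medians of the mutant arrays lay near 18.8, the 25th percentile of all values pooled, among the dim values of the arrays. Whether a lower signal came from fewer cells of a type or from less RNA per cell cannot be told apart in whole testes.

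**Figure D1:**
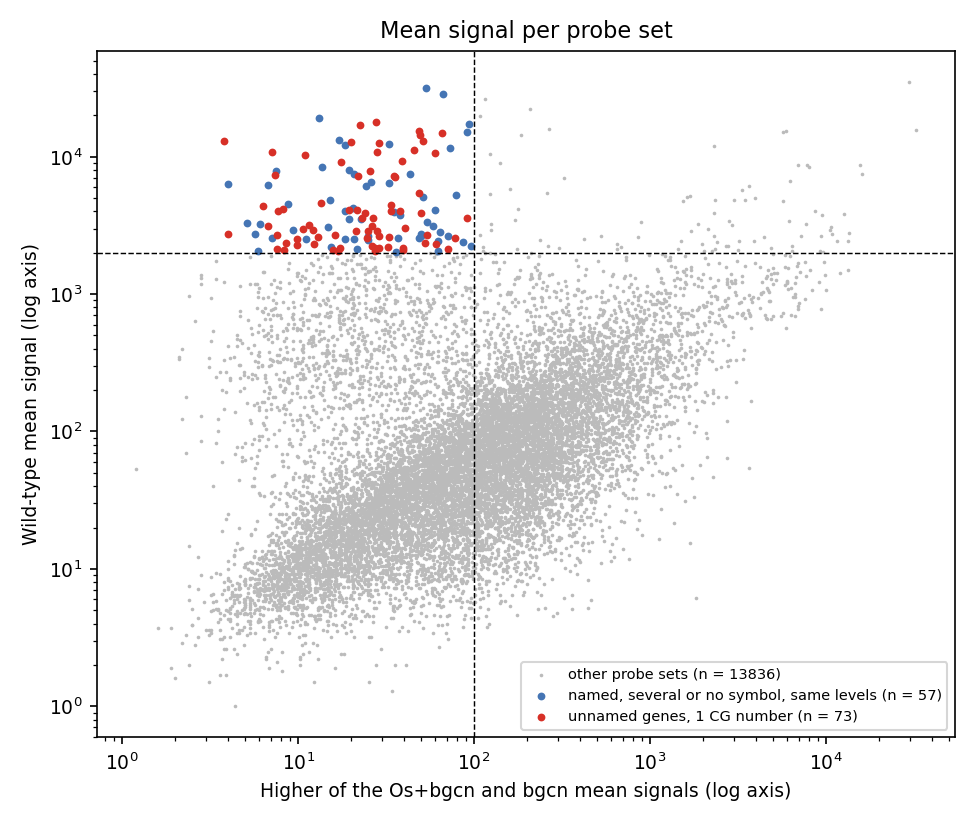
Mean signal of all 13966 probe sets, wild-type mean on the vertical axis against the higher of the Os+bgcn and bgcn means on the horizontal axis (both log axes, arbitrary signal units). Broken lines mark the levels of 2000 and 100. The 73 unnamed genes and the other 57 probe sets that meet the same levels fill the upper left corner and are intermixed there.

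CG-numbered genes made up more of the probe sets that met the signal levels than of the array. Of 12443 probe sets with 1 gene symbol, 4911 (39.5%) carried a CG number, and of the 118 with 1 symbol that met the signal levels, 73 (61.9%) did. Of 85 CG-numbered probe sets with a wild-type mean of at least 2000, 73 (85.9%) were dim in both mutants. Of 100 such probe sets with 1 other symbol, 45 (45%) were. The other symbols are mostly gene names and include identifiers of non-coding RNAs such as lncRNA:CR32658. All symbols are those of the platform table, and RefSeq (Release 6 plus ISO1 MT) still gives all 73 genes by their CG number. All 73 were matched by gene identifier and are protein-coding in RefSeq.

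Group means of the 73 genes were 3.77 to 90.7 in Os+bgcn testes (median 20.2), 3.68 to 66.0 in bgcn testes (median 23.6) and 2065 to 17761 in wild-type testes (median 3176). In wild-type testes 14 genes had a mean of at least 10000, 17 a mean between 4000 and 10000, and 42 a mean under 4000. The wild-type mean was at least 29.7 times the higher of the mutant means in all 73, and the lowest wild-type array at least 18.9 times the highest mutant array, with the smallest ratio in CG30412 both times. Larger ratios are not given or ranked, because many mutant means lay at the dim end of the scale and were not shown to be above background. On the log2(signal + 18.8) scale, which understates the change of dim probe sets, the median difference was -6.71 for Os+bgcn minus wild-type and -6.54 for bgcn minus wild-type. Both differences share the wild-type arrays.

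**Figure D2:**
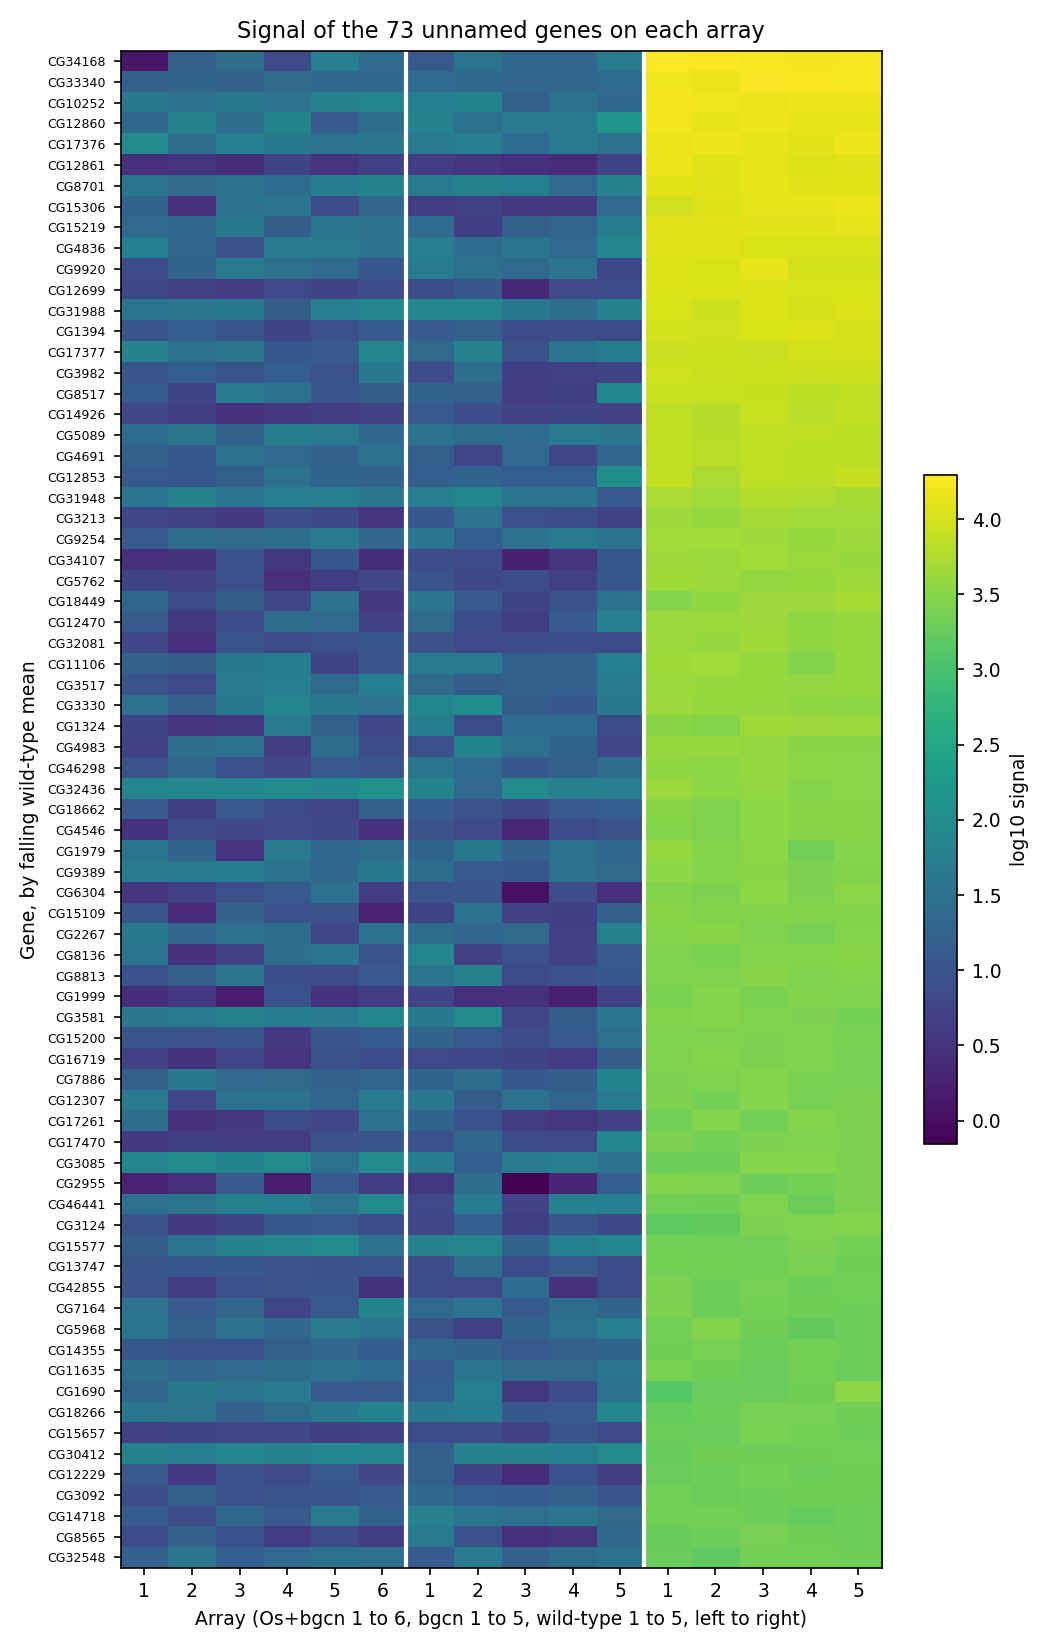
Signal of the 73 genes on each of the 16 arrays (log10 signal as colour), genes ordered by falling wild-type mean and arrays ordered as Os+bgcn 1 to 6, bgcn 1 to 5 and wild-type 1 to 5. Each gene is bright on all 5 wild-type arrays and dim on all 11 mutant arrays, and CG30412 and CG32436 stay among the least dim of the mutant rows.

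The highest wild-type mean was that of CG34168, which ranked 8 of all probe sets on the wild-type arrays. Its signal was 1.3 at the lowest, 21.2 at the median and 56.6 at the highest on the 6 Os+bgcn arrays. On the bgcn arrays it was 12.7, 37.6, 21.3, 20.7 and 46.3, and on the wild-type arrays 19756, 18655, 16890, 16510 and 16994. The wild-type arrays lay close together, while the mutant arrays spread widely at a low level and overlapped each other. A signal depends on the probes as well as on the RNA, so an order of genes by signal is an order of probe sets and not of transcript numbers.

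CG33340 had a lowest, median and highest signal of 15.4, 20.2 and 24.2 on the Os+bgcn arrays. Its bgcn arrays gave 24.9, 22.3, 20.9, 20.3 and 24.7, and its wild-type arrays gave 16006, 14814, 18794, 17900 and 17325. All 11 mutant arrays fell in a narrow band, and no mutant array approached wild type. CG10252 gave 30.7, 43.4 and 73.2 on the Os+bgcn arrays (lowest, median, highest), 57.6, 70.4, 16.3, 32.4 and 21.6 on the bgcn arrays, and 16217, 15669, 14777, 15026 and 15156 on the wild-type arrays. Both mutants of CG10252 overlapped almost fully, and its wild-type arrays were among the most even of the bright genes.

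CG12860 and CG12861 are immediate neighbours on chromosome arm 2R and differed in their mutant signal. For CG12860 the Os+bgcn arrays gave 13.5, 28.8 and 71.5 (lowest, median, highest), the bgcn arrays 64.9, 31.0, 45.5, 45.8 and 142.8, and the wild-type arrays 16588, 14158, 15327, 13860 and 14055. bgcn array 5 was above 100, the upper level of the choice, which is set on group means. CG12861 gave 2.7, 3.35 and 5.4 on the Os+bgcn arrays, 4.3, 3.3, 2.8, 2.6 and 5.8 on the bgcn arrays, and 15425, 12180, 13607, 11629 and 12250 on the wild-type arrays. It was very dim on every mutant array, with means of 3.77 ± 1.11 in Os+bgcn (SD, n = 6), 3.76 ± 1.32 in bgcn and 13018 ± 1530 in wild-type testes (SD, n = 5 each).

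CG17376 gave 28.5, 41.7 and 92.7 on the Os+bgcn arrays, 45.4, 55.0, 25.6, 47.4 and 30.6 on the bgcn arrays and 14736, 15322, 14263, 12794 and 15146 on the wild-type arrays. CG8701 gave 24.3, 33.9 and 67.5 on the Os+bgcn arrays, 50.4, 59.6, 59.3, 23.0 and 65.8 on the bgcn arrays and 12871, 12561, 13691, 12358 and 13228 on the wild-type arrays. In both genes the mutants overlapped, with 1 Os+bgcn array of CG17376 standing above the rest. CG15306, on the X chromosome, gave 2.9, 19.4 and 38.9 on the Os+bgcn arrays, 4.4, 4.9, 3.5, 3.8 and 23.6 on the bgcn arrays and 9441, 11389, 13805, 13559 and 15450 on the wild-type arrays. Here 4 of 5 bgcn arrays lay close together and array 5 stood apart, and the wild-type arrays spread more than those of the other bright genes.

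CG15219 gave 14.3, 27.9 and 42.9 on the Os+bgcn arrays, 25.4, 4.7, 15.3, 20.2 and 51.3 on the bgcn arrays and 12656, 12044, 12618, 12372 and 13377 on the wild-type arrays. CG4836, for which RefSeq lists the synonyms SODH-1 and Srd, gave 9.0, 38.6 and 58.9 on the Os+bgcn arrays, 57.2, 25.3, 39.1, 23.3 and 81.8 on the bgcn arrays and 12718, 11945, 10658, 10508 and 10537 on the wild-type arrays. bgcn array 5 was the highest bgcn array in both. CG9920 gave 7.7, 20.6 and 45.6 on the Os+bgcn arrays, 45.6, 30.2, 23.2, 34.0 and 6.5 on the bgcn arrays and 11133, 10551, 13356, 9670 and 9817 on the wild-type arrays. For CG9920 bgcn array 5 was the lowest, so no single bgcn array was high for all of these genes.

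CG12699 gave 4.3, 5.9 and 7.8 on the Os+bgcn arrays, 8.2, 11.3, 2.2, 6.8 and 6.9 on the bgcn arrays and 11453, 10900, 10968, 10714 and 10482 on the wild-type arrays. CG31988 gave 14.3, 41.3 and 82.3 on the Os+bgcn arrays, 85.3, 78.3, 44.7, 27.7 and 63.3 on the bgcn arrays and 10628, 9203, 11332, 10263 and 11496 on the wild-type arrays. CG12699 was even in wild type and near the bottom of the scale in both mutants, whereas CG31988 was less dim in them. CG1394 gave 5.6, 10.95 and 15.1 on the Os+bgcn arrays, 13.3, 15.4, 7.4, 8.1 and 6.9 on the bgcn arrays and 9783, 9597, 10506, 10853 and 10385 on the wild-type arrays. CG17377 gave 11.4, 35.7 and 73.4 on the Os+bgcn arrays, 24.0, 62.6, 9.0, 35.6 and 52.7 on the bgcn arrays and 8664, 8981, 8646, 9663 and 10253 on the wild-type arrays. Both mutant groups overlapped for each of these genes, and the wild-type arrays stood apart.

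**Figure D3:**
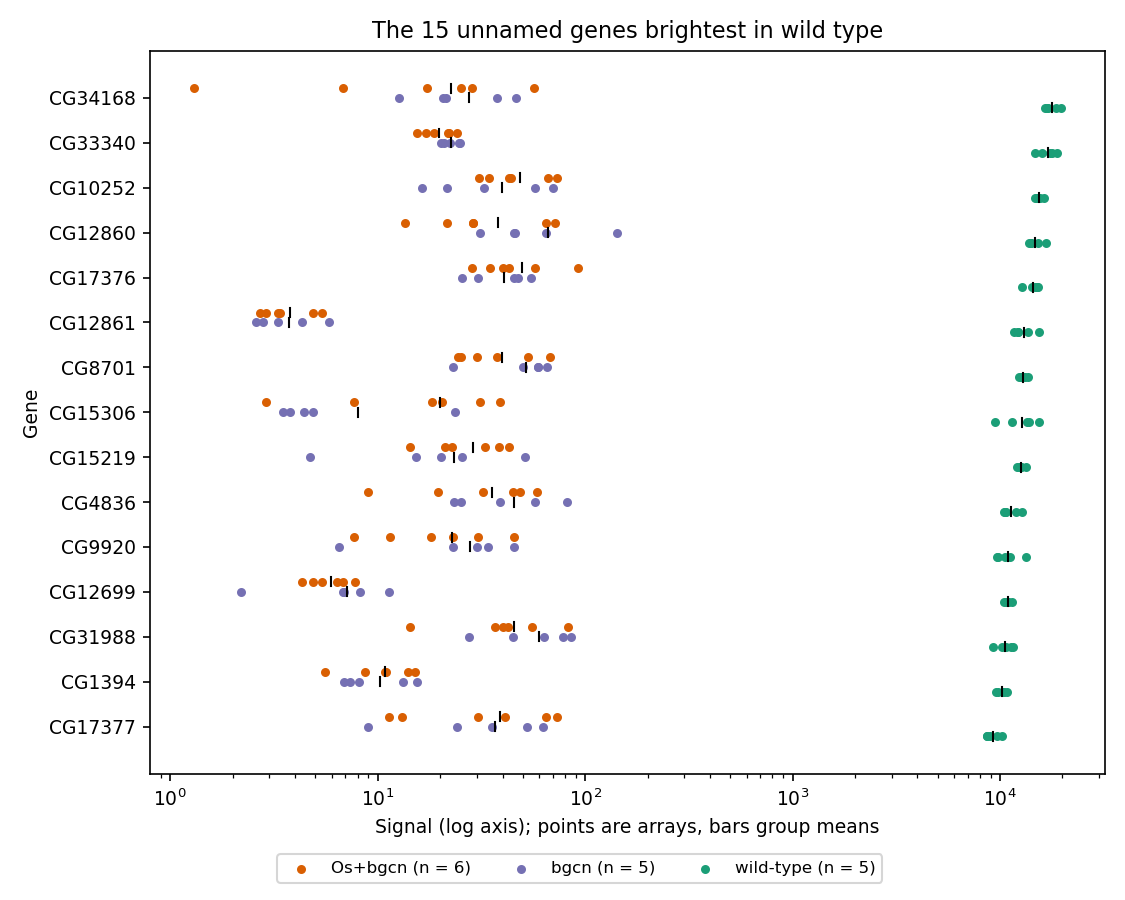
Signal of the 15 genes with the highest wild-type means (log axis, arbitrary units), one point per array and a short bar at each group mean, for Os+bgcn (n = 6), bgcn (n = 5) and wild-type (n = 5). All wild-type points lie at 8646 or above, apart from every mutant point, and the points of both mutants overlap for each gene.

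Values on both sides of each level are given for CG-numbered probe sets that met the other levels. CG32548 had the lowest wild-type mean of the set, 2065, and CG15034 the closest one below it, 1993, with both mutant means of CG15034 at 56.0 in Os+bgcn and 23.5 in bgcn. CG12860, at 66.0, had the highest bgcn mean of the set, and the closest above 100 was another probe set of the gene CG12699, at 125 in bgcn and 2932 in wild-type testes. CG32436, at 90.7, had the highest Os+bgcn mean, and CG14995, at 125 in Os+bgcn and 3217 in wild-type testes, lay just outside. The single arrays were also close to the levels: 59 genes had all 5 wild-type arrays at or above 2000 and 14 did not, and 69 had no mutant array above 100, the other 4 being CG12860, CG12853, CG3330 and CG32436. In 26 genes both mutant means were under 18.8, and in 14 a mutant mean was over 42.9, the 40th percentile of all values pooled.

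The least dim in the mutants relative to wild type was CG30412. It gave 56.8, 71.0 and 82.5 on the Os+bgcn arrays (lowest, median, highest), 17.0, 69.4, 67.6, 59.1 and 94.9 on the bgcn arrays and 1791, 2179, 2178, 2172 and 2270 on the wild-type arrays. Its log2 difference was -4.57 for Os+bgcn minus wild-type and -4.82 for bgcn minus wild-type, the smallest in size of the 73. CG12861 was at the other end, at -9.17 in both, a value that the added 18.8 holds down because its mutant signals lie far below it.

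Wild-type arrays agreed closely on these genes. The coefficient of variation over the 5 wild-type arrays was 2.85 to 36.7% with a median of 8.94%, and it had a median of 10.4% over the 147 other probe sets with a wild-type mean of at least 2000. Pearson's r between wild-type arrays over the 73 genes was 0.958 to 0.984, and 0.814 to 0.981 over those 147. These are correlations across probe sets within 1 group, where the points share arrays. The number of arrays limits the precision of every value here.

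The 3 steadiest genes were CG3982, CG12699 and CG13747. CG3982 gave 9.6, 13.1 and 44.7 on the Os+bgcn arrays, 7.4, 28.3, 4.6, 4.9 and 5.8 on the bgcn arrays and 9370, 8688, 9233, 9214 and 9125 on the wild-type arrays. CG13747 gave 9.0, 10.6 and 11.6 on the Os+bgcn arrays, 8.3, 26.8, 7.1, 12.1 and 7.4 on the bgcn arrays and 2341, 2319, 2267, 2381 and 2183 on the wild-type arrays. bgcn array 2 was the highest bgcn array of both genes and stood apart from the other bgcn arrays.

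The 3 most variable in wild type were CG1690, CG3124 and CG1979. CG1690 gave 12.3, 28.6 and 47.9 on the Os+bgcn arrays, 15.2, 58.0, 3.7, 7.8 and 32.2 on the bgcn arrays and 1340, 1929, 1879, 2160 and 3463 on the wild-type arrays. Without wild-type array 5, its highest, CG1690 fell below the wild-type level of 2000. CG3124 gave 3.9, 8.45 and 12.8 on the Os+bgcn arrays, 6.1, 15.2, 4.6, 10.1 and 6.5 on the bgcn arrays and 1618, 1675, 2655, 2725 and 3010 on the wild-type arrays. Its wild-type arrays 1 and 2 were low and arrays 3 to 5 high, and neither set overlapped the mutants. CG1979 gave 3.3, 23.8 and 46.1 on the Os+bgcn arrays, 18.5, 42.0, 17.9, 31.2 and 21.7 on the bgcn arrays and 3860, 2983, 3520, 2237 and 3035 on the wild-type arrays. Over all 73 genes, wild-type arrays 1 and 2 were together the lowest in 16 and together the highest in 16. Of the 147 other probe sets with a wild-type mean of at least 2000, they were together the lowest in 29 and together the highest in 29. Some other pairs stood together at an end as often. Among the 73 genes, arrays 4 and 5 were together the lowest in 18, and arrays 1 and 3 together the highest in 16. CG3124 was thus not alone in its split of the arrays, which ran in either direction equally often. The pair of arrays 1 and 2 did not stand out from all other pairs.

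A second probe set was present for 7 of the genes, and none of these second probe sets met the signal levels. That of CG12699 had means of 85.6 in Os+bgcn, 125 in bgcn and 2932 in wild-type testes. For CG1394 the second probe set gave 23.4 in Os+bgcn, 23.0 in bgcn and 498 in wild-type testes, and for CG17377 it gave 15.98 in Os+bgcn, 10.4 in bgcn and 424 in wild-type testes. That of CG5762 gave 10.8 in Os+bgcn, 10.4 in bgcn and 925 in wild-type testes. All 4 had higher means in wild type than in both mutants, and that of CG12699 alone exceeded 2000 in wild type.

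The second probe set of CG9389 gave 64.1 in Os+bgcn, 101 in bgcn and 464 in wild-type testes, and that of CG32436 gave 50.2 in Os+bgcn, 33.8 in bgcn and 120 in wild-type testes. For CG32548 it gave 36.2 ± 28.1 in Os+bgcn (SD, n = 6), 33.7 ± 16.4 in bgcn and 18.7 ± 4.45 in wild-type testes (SD, n = 5 each). In CG32548 the second probe set was therefore not higher in wild type. CG32548 gave 15, 26.6 and 40.9 on the Os+bgcn arrays with its chosen probe set, 13.1, 49.2, 16, 26.3 and 31.4 on the bgcn arrays and 1924, 1639, 2326, 2296 and 2141 on the wild-type arrays. Statements on CG32548 hold for its chosen probe set only, and why the probe sets differ was not tested.

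The genes lay on all large chromosome arms. The X chromosome held 10: CG15306, CG1394, CG12470, CG11106, CG1324, CG1999, CG15200, CG15577, CG8565 and CG32548. Arm 2L held 21: CG34168, CG17376, CG15219, CG31988, CG17377, CG14926, CG4691, CG31948, CG3213, CG9254, CG4983, CG18662, CG6304, CG8813, CG12307, CG17261, CG17470, CG2955, CG7164, CG5968 and CG18266. Arm 2R held 19: CG12860, CG12861, CG8701, CG12699, CG8517, CG5089, CG12853, CG18449, CG46298, CG15109, CG3085, CG3124, CG13747, CG42855, CG11635, CG1690, CG15657, CG30412 and CG3092. Arm 3L held 6: CG3982, CG32081, CG32436, CG9389, CG16719 and CG12229. Arm 3R held 17: CG33340, CG10252, CG4836, CG9920, CG34107, CG5762, CG3517, CG3330, CG4546, CG1979, CG2267, CG8136, CG3581, CG7886, CG46441, CG14355 and CG14718.

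As shares of the 73, these are 13.7% on the X, 28.8% on 2L, 26.03% on 2R, 8.22% on 3L and 23.3% on 3R. Of 4482 CG-numbered genes of the array, 18.1% were on the X, 18.2% on 2L, 18.5% on 2R, 19.9% on 3L and 24.4% on 3R. Arm 3L held a smaller share and arm 2L a larger share of the 73 than of all CG-numbered genes, a description for which no test was made. None of the 73 was on chromosome 4, which carried 9 of the CG-numbered genes.

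The genes were short. Their span in RefSeq, introns included, had a median of 1252 bases (399 to 15888), against 1827 bases over all CG-numbered genes and 2385 bases over all genes of the array with 1 symbol. RefSeq lists a single transcript for 47 of the 73. The median number of transcripts was 1 with an upper quartile of 2, both for the 73 and for all CG-numbered genes of the array. Another RefSeq gene overlaps 30 of the 73, as mbl does CG12699 and trpl does CG1690, so a probe set may lie where more than 1 gene is annotated. The share of overlapped genes over the rest of the array was not counted.

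Older names kept as RefSeq synonyms include those of expressed sequence collections. A synonym in the anon-WO0140519 series was listed for 29 genes (39.7%), for 2 of 11 other CG-numbered genes with a wild-type mean of at least 2000 (18.2%), and for 2.59% of 4448 CG-numbered genes. An expressed sequence tag named bs was listed for 12 (16.4%), for 3 of those 11 (27.3%) and for 0.787% of the 4448. A clone of the AT testis cDNA library was listed for 5 (6.85%), for 0 of those 11 and for 2.52% of the 4448. Synonyms of the anon-WO0140519 and bs kinds were thus also present among genes bright in wild type that are not in the set, and AT clones were not. Synonyms in the form of a gene name were few: mtr for CG8517, AK-3 for CG4546, IMP for CG9389 and SPRK2 for CG8565, beside those of CG4836. No function is annotated to the genes in the sources used here.

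Several of the genes are neighbours. With protein-coding genes taken in RefSeq order along each arm, 9 of the 73 lay directly beside another of the set, and 10 (13.7%) beside a gene that met the signal levels, named or not, against 155 of 10658 other genes (1.45%). Within 3 genes on either side the counts were 13 and 15 (20.5%), against 4.27%. The 13 fell into 6 groups of at most 3.

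CG12861 and CG12860 on 2R formed the closest group, and the genes on both sides of them did not meet the levels. Adgf-E, an adenosine deaminase-related growth factor gene, had means of 17.0 in Os+bgcn, 20.0 in bgcn and 712 in wild-type testes, and Targ had means of 31.7 in Os+bgcn, 11.6 in bgcn and 186 in wild-type testes. CG12307 and CG4983 on 2L formed the next group. CG12307 gave 6.3, 32.6 and 49.0 on the Os+bgcn arrays, 43.1, 14.4, 32.5, 20.2 and 54.1 on the bgcn arrays and 2657, 2309, 3093, 2372 and 2620 on the wild-type arrays. CG4983 gave 4.5, 17.4 and 32.0 on the Os+bgcn arrays, 8.4, 71.3, 29.1, 18.3 and 6.1 on the bgcn arrays and 3904, 3991, 3715, 3190 and 3168 on the wild-type arrays. Their mutant arrays overlapped in both genes, and CG6614 on one side did not meet the levels, with a wild-type mean of 103.

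CG17376 and CG17377 on 2L, both among the 15 brightest, lay beside Daao2, a D-amino acid oxidase gene that was dim in all groups, with means of 19.5 in Os+bgcn, 13.0 in bgcn and 8.08 in wild-type testes. On 3R, CG5762 and CG33340 were separated by CG33339, which was not used here for want of a probe set of its own. CG5762 gave 2.8, 5.4 and 8.5 on the Os+bgcn arrays, 10, 6.5, 8.2, 4.8 and 11.3 on the bgcn arrays and 4496, 4322, 3744, 3907 and 4341 on the wild-type arrays. CG18528 and CG17784 flanked this group with wild-type means of 20.9 and 51.8. No flanking gene named for these groups met the wild-type level.

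CG18449 and CG8701 on 2R enclosed CG2127, which missed the set because of its mutant means. CG18449 gave 3.5, 10.6 and 33.0 on the Os+bgcn arrays, 39.9, 12.2, 5.4, 8.9 and 31.1 on the bgcn arrays and 3054, 3559, 4363, 4323 and 5137 on the wild-type arrays. CG2127 had means of 124 ± 42.2 in Os+bgcn (SD, n = 6), 105 ± 29.3 in bgcn and 10547 ± 572 in wild-type testes (SD, n = 5 each). All 3 were bright in wild type, and CG2121 on the far side of CG8701 had a wild-type mean of 42.9.

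The sixth group, which was chosen for description after its values were seen, was CG1394, CG15200 and CG11106 on the X. CG15200 gave 3.9, 10.5 and 13.6 on the Os+bgcn arrays, 19.0, 12.5, 7.2, 12.5 and 30.3 on the bgcn arrays and 2779, 2763, 2663, 2753 and 2543 on the wild-type arrays. CG11106 gave 5.4, 15.3 and 53.0 on the Os+bgcn arrays, 50.1, 45.8, 16.3, 17.5 and 58.7 on the bgcn arrays and 4639, 4813, 3835, 2851 and 4028 on the wild-type arrays. CG15200 was steady in wild type while CG11106 varied, with wild-type array 4 lowest. Antdh, an antennal dehydrogenase gene, and CG44422 flanked the group with wild-type means of 50.3 and 14.6.

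**Figure D4:**
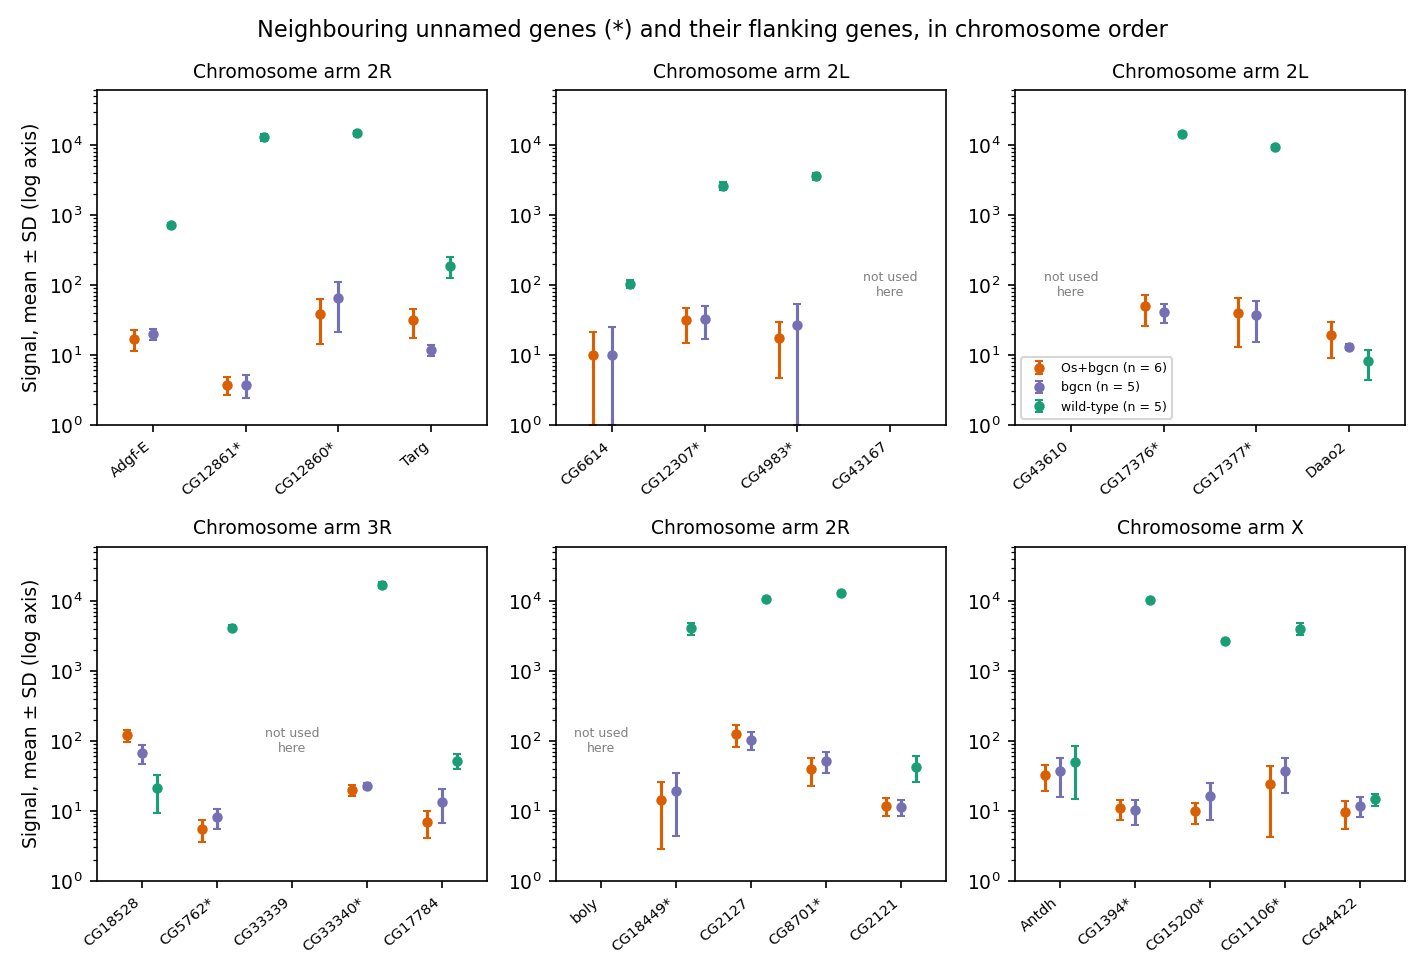
Mean signal ± SD (log axis) of the 6 groups of neighbouring genes, marked with an asterisk, and of the genes on either side in chromosome order, for Os+bgcn (n = 6), bgcn (n = 5) and wild-type (n = 5). Lower bars that would pass below 1 end at the axis, and genes without a probe set of a single symbol are marked as not used here. The marked genes all exceed 2000 in wild type, as does CG2127 between CG18449 and CG8701, and no other gene drawn does.

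The choice capped both mutant means but did not use the difference between them, so Os+bgcn was tested against bgcn. The test asks whether the signal of these genes differed between Os+bgcn and bgcn samples, which differed in the number of testes as well as by Os. With the adjusted threshold of 0.05, limma called 3 of the 73 genes (4.11%), CG3085 and CG9389 as higher and CG14718 as lower in Os+bgcn, where it called 20.5% of all 10422 tested probe sets. These shares cannot be read against each other, because the choice capped both mutant means and the bright wild-type arrays alone carried 59 of the 73 past the filter on low signals. Over all probe sets 11.6% were called higher and 8.91% lower in Os+bgcn. At an unadjusted p under 0.05 the count was 7 of 73. The wild-type arrays also entered the estimate of the spread. In a fit of the mutant arrays alone 0 of the 73 were called. The adjusted p-values by limma were then 0.0898 for CG3085, 0.0915 for CG9389 and 0.0971 for CG14718. The median log2 difference was -0.06 over the 73 genes and 0.03 over all tested probe sets, and 66 of the 73 differences were within 0.5 of 0.

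The arrays of both mutants overlapped in each of the 73 genes, and they did not overlap in 13.1% of all tested probe sets, to which the same limit applies. When the filter on low signals was read from the mutant arrays, 14 of the genes were tested and CG3085 and CG32436, 2 of them (14.3%), were called higher in Os+bgcn, beside 23.9% of 8885 probe sets, 13.7% higher and 10.2% lower. The other 59 did not exceed 42.9 on 5 of the 11 mutant arrays. Since bgcn samples held 750 testes and Os+bgcn samples 150, genotype and number of testes cannot be told apart in this comparison.

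CG3085 gave 77.7, 97.7, 71.5, 93.8, 29.7 and 95.6 on the Os+bgcn arrays, against 52.3, 15.2, 47.5, 56.0 and 31.9 on the bgcn arrays, and 2056, 2098, 3022, 3040 and 2567 on the wild-type arrays. Os+bgcn array 5 lay within the bgcn range and the other 5 lay above it. Its log2 difference was 0.70 ± 0.23 (SE, adjusted p = 0.039 by limma). The call was lost on leaving out any of Os+bgcn arrays 1, 2, 3, 4 and 6 or bgcn arrays 2 and 5, with differences of 0.51 to 0.71 and adjusted p-values of 0.058 to 0.13.

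CG9389 gave 45.3, 48.8, 53.2, 31.9, 21.2 and 43.3 on the Os+bgcn arrays, against 28.9, 12.7, 11.5, 33.6 and 24.0 on the bgcn arrays, and 3398, 3108, 3208, 2657 and 2784 on the wild-type arrays. Of the Os+bgcn arrays, 4 lay above all bgcn arrays and 2 within their range. CG9389 was one of the 59 genes that passed the filter only through wild type, so the call rests on dim signals. The log2 difference was 0.54 ± 0.18 (SE, adjusted p = 0.036 by limma). Its second probe set ran the other way, at -0.59 (adjusted p = 0.15). The call was lost on leaving out any of Os+bgcn arrays 1, 2, 3 and 6 or bgcn arrays 2 and 3, with differences of 0.44 to 0.53 and adjusted p-values of 0.063 to 0.0996.

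CG14718 was the gene called lower in Os+bgcn. It gave 13.9, 7.5, 21.6, 12.7, 48.4 and 16.9 on the Os+bgcn arrays, against 65.9, 37.3, 30.3, 39.3 and 24.6 on the bgcn arrays, and 2212, 2259, 2093, 1783 and 2058 on the wild-type arrays. Os+bgcn array 5 stood above the other Os+bgcn arrays, which lay below all bgcn arrays. CG14718 too passed the filter only through wild type. The log2 difference was -0.61 ± 0.21 (SE, adjusted p = 0.047 by limma), and it was not called when no filter was used (adjusted p = 0.058 by limma). Among the single arrays of any group, leaving out Os+bgcn array 5, bgcn array 3 or bgcn array 5 kept the call, and each other one ended it, with differences of -0.64 to -0.47 and adjusted p-values of 0.057 to 0.12.

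The next closest to the threshold were CG32436 and CG46298, which were chosen for description after their values were seen. CG32436 gave 75, 82.8, 82.9, 97.1, 84.2 and 122.2 on the Os+bgcn arrays, against 71.8, 23.0, 89.7, 59.7 and 55.9 on the bgcn arrays, and 4201, 3477, 3678, 3112 and 3376 on the wild-type arrays. Its log2 difference was 0.53 (adjusted p = 0.052 by limma), and both mutants overlapped through bgcn array 3. CG46298 gave 9.7, 21.0, 9.3, 6.2, 12.1 and 9.6 on the Os+bgcn arrays, against 37.1, 25.3, 11.1, 16.7 and 25.7 on the bgcn arrays, and 3550, 3505, 4027, 3479 and 3390 on the wild-type arrays. Its difference of -0.46 (adjusted p = 0.055 by limma) rested on mutant signals that were all at or under 37.1.

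**Figure D5:**
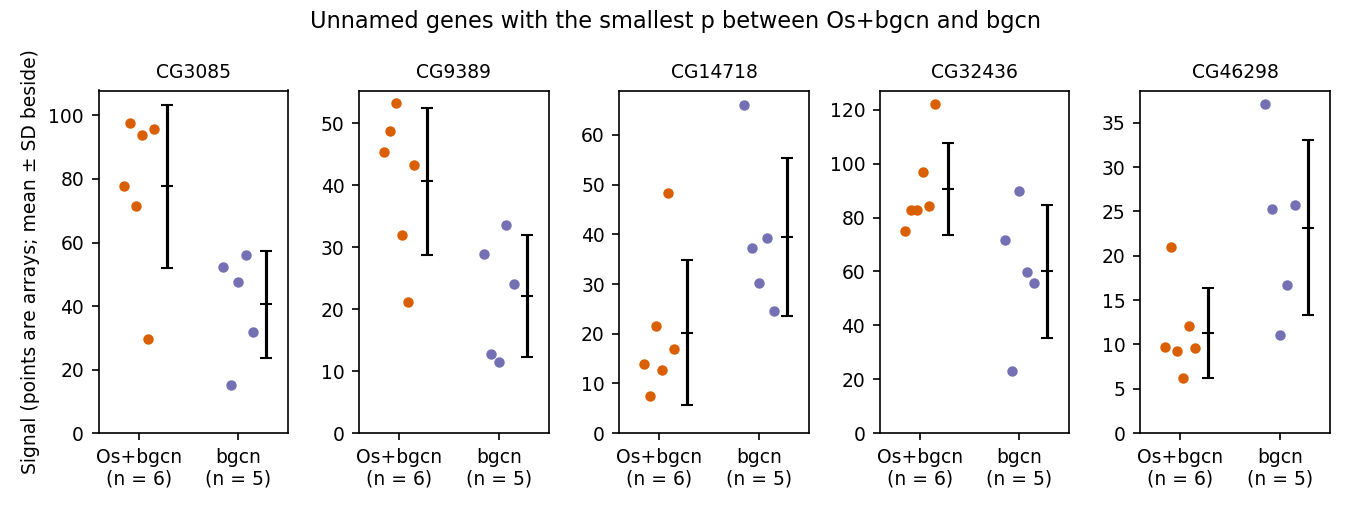
Signal (linear axis) of the 5 genes with the smallest p between Os+bgcn (n = 6) and bgcn (n = 5), one point per array with mean ± SD beside the points. CG3085, CG9389 and CG32436 have higher means in Os+bgcn and CG14718 and CG46298 lower ones, and the points of both groups overlap in each panel.

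Markers of tissue other than the germline moved between the same arrays. Of 12 listed accessory gland and duct genes 9 were measured, with summed signals of 276 to 1799 on the Os+bgcn arrays, 2458 to 15775 on the bgcn arrays and 4360 to 15137 on the wild-type arrays. Acp95EF and Acp70A had their highest mean in wild type, and the other measured genes of this list in bgcn. bgcn arrays 1 and 2 had the highest sums of the bgcn arrays, 15775 and 9851. Without both arrays the difference of CG3085 was 0.55 (adjusted p = 0.13 by limma), that of CG9389 was 0.51 (adjusted p = 0.088) and that of CG14718 was -0.42 (adjusted p = 0.23). The part of such tissue in these differences was not tested. None of the accessory gland genes met the signal levels of the 73 genes.

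Other lists also differed between the groups without holding a gene that met the levels. Summed signals of 6 of 7 cyst lineage genes were 2641 to 3373 on the Os+bgcn arrays, 893 to 1137 on the bgcn arrays and 243 to 325 on the wild-type arrays. Nrt, with a mean of 1300, gave the largest part of the Os+bgcn sum. eya was highest in bgcn, with means of 99.8 in Os+bgcn, 215 in bgcn and 68.5 in wild-type testes, and the others were highest in Os+bgcn. tj had means of 19.4 in bgcn and 26.2 in wild-type testes. Summed signals of 3 of 4 hub genes, upd1 among them, were 529 to 905 on the Os+bgcn arrays, 70.1 to 119 on the bgcn arrays and 174 to 286 on the wild-type arrays. upd1 and CadN carried the Os+bgcn sum, while hh had means of 32.5 in Os+bgcn, 61.9 in bgcn and 74.3 in wild-type testes. The sums of 7 of 10 muscle genes were 2171 to 3577 on the Os+bgcn arrays, 3529 to 5768 on the bgcn arrays and 2466 to 2919 on the wild-type arrays. Those of 5 of 6 hemocyte genes were 646 to 1419 on the Os+bgcn arrays, 1423 to 1922 on the bgcn arrays and 420 to 497 on the wild-type arrays. Those of 6 of 6 fat body genes were 223 to 553 on the Os+bgcn arrays, 758 to 1120 on the bgcn arrays and 314 to 550 on the wild-type arrays. Act87E gave the largest part of the muscle sums, with means of 1822 in Os+bgcn, 2262 in bgcn and 2069 in wild-type testes. The measured muscle, hemocyte and fat body genes had their highest mean in bgcn, except NimC1 and Yp1. NimC1, of the hemocyte list, had means of 7.45 in Os+bgcn, 6.54 in bgcn and 12.7 in wild-type testes. Yp1, of the fat body list, had means of 20.0 in Os+bgcn, 24.5 in bgcn and 41.3 in wild-type testes.

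Genes that regulate the spermatocyte program were measured for 13 of 14 listed members, which include bol, an RNA-binding protein needed for meiotic entry, and rye, a testis form of a TATA-binding protein associated factor. Their summed signal was 757 to 856 on the Os+bgcn arrays, 627 to 771 on the bgcn arrays and 2400 to 2906 on the wild-type arrays, and none met the levels. bol had means of 261 in Os+bgcn, 209 in bgcn and 1141 in wild-type testes, and rye had means of 82.6 in Os+bgcn, 98.6 in bgcn and 336 in wild-type testes. Both had their highest mean in wild type, under 2000. Not all listed members were like them. achi was highest in Os+bgcn, with means of 36.0 in Os+bgcn, 9.02 in bgcn and 11.2 in wild-type testes. tomb differed little, at 66.8 in Os+bgcn, 61.8 in bgcn and 67.7 in wild-type testes. mia had means of 119 in Os+bgcn, 57.5 in bgcn and 130 in wild-type testes. The remaining measured members had their highest mean in wild type.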

How the data were processed

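Expression was measured on Affymetrix DrosGenome1 arrays, and groups follow the sample titles. The authors deposited 1 linear intensity value for each probe set. MAS5 is the tool in the submitters' processing notes, without a version. The 2% trimmed mean of every array was close to 149, so the arrays were already scaled. Detection calls were not used.

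Values were transformed to log2(signal + 18.8), the pooled 25th percentile. Tests covered the 10422 probe sets that exceeded 42.9 (40th percentile) on 5 or more arrays. limma 3.58.1 in R 4.3.3 was fitted to all 16 arrays with 1 coefficient per group and an intensity trend, with Benjamini-Hochberg adjustment and a threshold of 0.05. Errors are SE for log2 differences and SD for signals. Python 3.11.15, pandas 2.3.3 and matplotlib 3.10.9 made tables and figures. The fit was tested on simulated data. P-values measure the spread between these samples, pooled over all 16 arrays, so the wild-type arrays enter the error of the comparison between the mutants.

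The genes and the marker lists were chosen with earlier results of these data known. Genes were named by rule: upd1 and bgcn, the 15 highest wild-type means, those nearest a level, those called between mutants (up to 5 a direction), the 3 largest and 3 smallest coefficients of variation, those with a second probe set, the 5 closest groups of neighbours, any that carried a newer RefSeq name (none did) and up to 3 genes of each marker list. Kinship of proteins was also planned and was not analysed here, as no protein sequences were used. Genes printed beyond this rule were picked after their values were seen. RefSeq names, synonyms, spans and gene order come from Release 6 plus ISO1 MT. Alternatives tried were other pseudocounts, filters, scalings, levels, arrays left out and a replicate block.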

Additional observations from a re-analysis of the deposited data

Results flagged for a closer look

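In 7 cases an array of a described gene stood apart from the others of its group. Its gap to the nearest array, divided by the range of the group, was over Dixon's 95% critical value for the group size. On the Os+bgcn side these were CG3982, highest on array 6 at 44.7, and CG14718, highest on array 5 at 48.4. On the bgcn side they were CG15306, highest on array 5 at 23.6, CG3982, highest on array 2 at 28.3, and CG13747, highest on array 2 at 26.8. In wild type they were CG46298, highest on array 3 at 4026.6, and CG30412, lowest on array 1 at 1791.2. Over all 73 genes, 23 of 219 gene and group combinations had such an array (10.5%). Chance gives about 5% for normally distributed values, which these linear signals were not shown to be. In both mutants each such array was the highest of its group, so the share cannot be read as an excess of deviant arrays. By group these were 8 in Os+bgcn, 12 in bgcn and 3 in wild type, and bgcn array 5 was the high one in 6.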

How the results depend on the processing

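The set held 28 genes with levels of 4000 and 50 and 214 with levels of 1000 and 200. It held 66 after quantile normalisation, 91 with arrays centred on their median, 74 by group medians and 71 to 74 when 1 array was left out. Of the 73 genes, 1 was called between Os+bgcn and bgcn with the pseudocount at the 40th percentile, 1 without the intensity trend, 0 in a fit of the mutant arrays alone, and 0 in that fit with the filter read from the mutant arrays, a setting added after seeing the data. With 1 array left out 0 to 4 were called: 0 without Os+bgcn array 1, 3 or 6, and 1 without bgcn array 2 or Os+bgcn array 4. With the replicate number as a block 0 of the 73 and 1749 of all probe sets were called. Deviations of same-numbered Os+bgcn and bgcn arrays correlated at 0.20, -0.08, -0.11, -0.01 and 0.01. Only for number 1 was the same number the best match. Wild-type arrays were not compared, and such weak correlations cannot decide whether the numbers stand for shared batches. CG3085 and CG9389 were each called in 16 of 28 settings, CG14718 in 6, CG46298 in 4 and CG32436 in 3. All probe sets called numbered 1674 to 2328, the lowest without bgcn arrays 1 and 2, a setting that was also added later, as was leaving out wild-type arrays here.

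The median difference between the mutants was -0.13 to -0.01 with 1 array left out. It was 0.17 over the 14 genes tested when the filter was read from the mutant arrays, in the fit of all arrays and in that of the mutant arrays, as other genes were tested. The bgcn minus wild-type median was -7.20 and -5.77 with pseudocounts at the 10th and 40th percentiles, -6.76 with arrays centred and -6.65 to -6.48 with 1 array left out. The Os+bgcn minus wild-type median was -7.51 and -5.86 with these pseudocounts, -6.60 after quantile normalisation, -6.93 with arrays centred and -6.77 to -6.64 with 1 array left out. The size of these medians thus depends on the pseudocount, since the mutant signals lie near the dim end of the arrays. The cause of the other changes was not tested.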

Other observations

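The signal levels that chose the 73 unnamed genes were also met by 57 other probe sets, 45 with a gene name, 8 with several symbols and 4 with none. The brightest in wild type were those of Mst84Dc and Mst84Db, which encode sperm tail proteins. Mst84Dc had means of 31.8 ± 7.84 in Os+bgcn (SD, n = 6), 53.0 ± 28.1 in bgcn and 31629 ± 6654 in wild-type testes (SD, n = 5 each). A probe set shared by ProtA and ProtB, the protamine-like proteins of sperm chromatin, had means of 5.10 in Os+bgcn, 6.68 in bgcn and 6225 in wild-type testes. Genes best known from other tissues were present too: exu, known for localising bicoid RNA in the oocyte, had a mean of 2241 in wild-type testes.

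RNAs that are annotated as non-coding reached the same levels. lncRNA:CR32658 had means of 73 in Os+bgcn, 62.3 in bgcn and 11607 in wild-type testes, lncRNA:CR9284 had means of 10.8 in Os+bgcn, 13.6 in bgcn and 8450 in wild-type testes, and lncRNA:CR32661 had means of 20.1 in Os+bgcn, 48.5 in bgcn and 2544 in wild-type testes. Of the 4 probe sets that are unnamed here, the brightest had means of 13.1 in Os+bgcn, 12.9 in bgcn and 19094 in wild-type testes. The next had means of 14.2 in Os+bgcn, 17.0 in bgcn and 13212 in wild-type testes.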
